A study of Homo sapiens with 4 samples.

Results

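The haematopoietic cytokine receptors described here are 9 genes, chosen by name from the 28103 gene symbols of a count table: EPOR, KIT, FLT3, CSF2RA, CSF2RB, IL3RA, IL6ST, IL6R and CSF3R. Their RNA was measured by poly(A) RNA-seq in HEL cells, an established line from a human erythroleukaemia that makes fetal globin and some platelet-lineage proteins and carries an activated JAK2. The labels call the cell type an erythroblast. The 4 libraries were 2 labelled Ctrl, with a WT genotype, and 2 labelled AFF4_KD, with AFF4 knockdown. AFF4 holds together the super elongation complex, through which the kinase P-TEFb reaches paused RNA polymerase II. How and for how long AFF4 was knocked down was not given in the sources used here. Whether the libraries of a group are from separate cultures is unstated in the labels. The p-values therefore rest on library-to-library spread alone, and that spread may be technical.

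Cytokine receptors tell blood precursors to survive, divide or mature. KIT and FLT3 are receptor tyrosine kinases with a kinase domain of their own. The other 7 have none. The receptor complexes they form signal through bound JAK kinases, which phosphorylate STAT factors. EPOR binds erythropoietin and CSF3R binds G-CSF, each as a pair of identical chains. CSF2RB is the common beta chain, which signals only together with a ligand-binding alpha chain such as CSF2RA, for GM-CSF, or IL3RA, for interleukin 3. IL6ST (gp130) is likewise the shared signalling chain of IL6R and of the receptors for LIF, oncostatin M, interleukin 11 and interleukin 27.

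Summed counts lay between 14903878 and 19129008 per library. AFF4 itself fell from 88.3 and 69.2 CPM (counts scaled to library size) in Ctrl 1 and Ctrl 2 to 18.7 and 18.9 CPM in knockdown 1 and 2, with the direction the labels give (log2 fold change -2.07; edgeR adjusted p = 0.0268, and 0.0552 with a filter of at least 5 CPM in 2 libraries). All 9 erythroid markers passed the filter on low counts, 5 with a positive and 4 with a negative log2 fold change and a median of 0.01. Their sum, mostly the globins HBG1, HBG2 and HBE1, was 12800 and 14400 CPM in Ctrl against 9270 and 9110 CPM in the knockdown. HBG1 fell (-0.86; edgeR adjusted p = 0.0394), whereas GYPB and TFRC, higher in both knockdown libraries, had 0.58 and 0.39 and did not pass (edgeR adjusted p = 0.199 and 0.263). In bulk RNA, fewer cells of a type and less RNA per cell cannot be told apart. Of the 6 megakaryocytic markers, 5 were negative, with a median of -0.62 and a sum of 1640 and 2470 CPM in Ctrl against 1520 and 1640 CPM in the knockdown. ITGB3 fell (612 and 642 CPM against 345 and 340 CPM; -0.87; edgeR adjusted p = 0.0415), and PF4 had -1.01 (0.105). The T-cell markers CD3D, CD3E and CD3G and the fibroblast markers COL1A2, DCN and LUM were at 0 in all 4 libraries. The Ctrl libraries stood apart from each other. Their log2 difference, Ctrl 2 minus Ctrl 1, rose with the GC content of the transcript (Spearman's rho = 0.816 across 13162 genes, a description, since all genes share the same 2 libraries), and its median size was 0.343, against 0.0901 between the knockdown libraries. The fitted difference between knockdown and Ctrl showed no such trend (rho = -0.00398). EPOR, KIT, CSF2RB and IL6ST are therefore also given after a GC correction, which removes from each library its own trend of log-CPM with GC content. That correction was chosen after the data were seen.

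The RNA of the 9 receptors spanned more than 3 orders of magnitude. Levels of different genes are compared as CPM per kilobase of exon, rescaled to the same sum in each library (per-length level), as mean ± SD of 2 libraries. In Ctrl the order was KIT at 272 ± 32.2, CSF2RB at 200 ± 63.8, EPOR at 37.1 ± 13.9, IL6ST at 26.6 ± 4.50, CSF3R at 1.14 ± 0.364, IL6R at 0.481 ± 0.0474, FLT3 at 0.307 ± 0.0115 and CSF2RA at 0.0271 ± 0.0383. IL3RA had no count. The order was the same in the knockdown, and the same in both groups with the longest transcript as the length. Neighbours were not all distinct. EPOR and IL6ST overlapped in Ctrl (27.3 and 46.9 against 29.8 and 23.4), but not in the knockdown (59.4 and 69.0 against 21.4 and 21.0). IL6R and FLT3 did not overlap in Ctrl but did in the knockdown. KIT and CSF2RB came close in Ctrl 2, at 249 and 245. The top 4 were thus the stem cell factor receptor, the shared chains CSF2RB and IL6ST and the erythropoietin receptor, and the other 5 lay at or under 1.44 in every library.

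**Figure D1:**
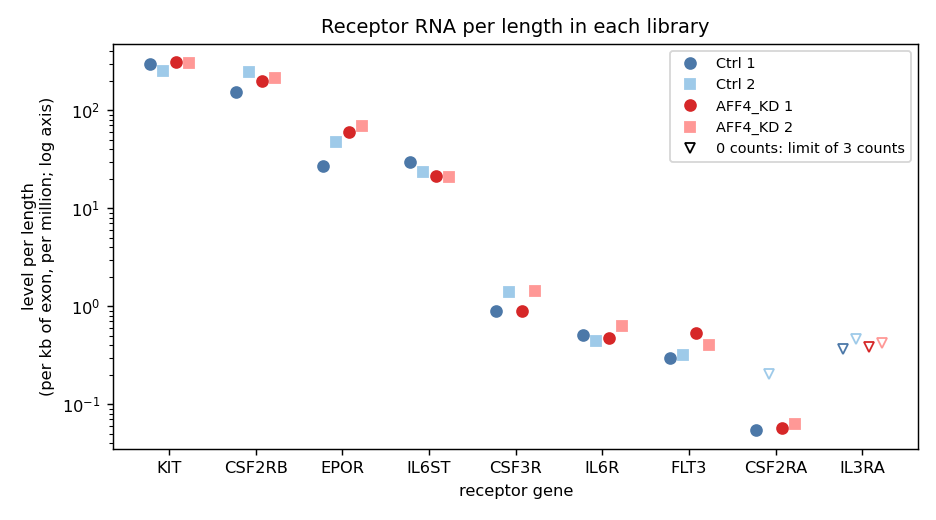
Per-length level (CPM per kilobase of exon, rescaled to the same sum in each library, log axis) of the 9 receptor genes in each of the 4 libraries, ordered by the Ctrl mean; open triangles mark libraries with 0 counts, drawn at the level that 3 counts would give. KIT, CSF2RB, EPOR and IL6ST lay between 21.0 and 308 in every library, and the other 5 genes at or under 1.44.

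Of the 9 receptors, 6 passed the filter on low counts (EPOR, KIT, CSF2RB, IL6ST, IL6R and CSF3R) and were tested in a fit across 13572 genes. Of these 6, 0 passed edgeR's quasi-likelihood test at an adjusted p under 0.05, where 0.641% of all tested genes passed, and 0 passed in DESeq2 or limma-voom, where 3.02% and 0.678% of all tested genes passed. At an unadjusted p under 0.05 there was 1, EPOR, where 15% of all tested genes passed. The groups did not overlap for EPOR, which was higher in the knockdown, and IL6ST, which was lower. Among all tested genes, 46.1% showed such a separation, so 2 of 6 is not above the background. The median log2 fold change of the 6 was 0.06, and that of all tested genes was -0.0089. FLT3, CSF2RA and IL3RA were too low to test. After the GC correction 2 of the 6 passed, EPOR upward and IL6ST downward, where 28.1% of all tested genes passed, a share close to that of the receptors.

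EPOR (chromosome 19, 11377205 to 11384342, minus strand, hg38) is the receptor that erythroid progenitors need for survival and final maturation. Its counts were 405 and 550 for Ctrl, library 1 before library 2 here and throughout, against 828 and 890 for the knockdown. This is 21.7 and 36.8 CPM in Ctrl against 45.8 and 52.9 CPM in the knockdown. Both knockdown libraries were above both Ctrl libraries, but Ctrl 2 lay nearer to knockdown 1 than to Ctrl 1. The mean was 29.3 ± 10.7 CPM in Ctrl against 49.3 ± 5.02 CPM in the knockdown (SD, n = 2 each). On the log2 scale the knockdown differed by 0.76 ± 0.27 (SE; 95% interval 0.13 to 1.38; edgeR unadjusted p = 0.0243, adjusted p = 0.251), and EPOR did not pass. Its size moved most with the Ctrl libraries: it was 0.42 without Ctrl 1 and 1.18 without Ctrl 2. It was 0.88 without knockdown 1 and 0.65 without knockdown 2. In the fits without Ctrl 1 and without Ctrl 2, 44% and 48.4% of all tested genes passed, and 3 receptors in each. The EPOR transcript is GC-rich, at 58.2% GC against a median of 48% over the tested genes. After the GC correction its levels were 25.6 and 31.1 CPM in Ctrl against 47.0 and 51.5 CPM in the knockdown, and the fitted difference was 0.79 ± 0.10 on the log2 scale (SE; edgeR adjusted p = 0.00204). The correction left the size of the difference nearly where it was and lowered the spread between the Ctrl libraries. Beside EPOR, the erythroid markers went both ways (5 of 9 positive, with the globins lower and GYPB and TFRC higher), and their part in the level of EPOR was not tested. EPOR shares some exonic sequence on the same strand with its neighbour RGL3, which had 5, 3, 0 and 0 counts.

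The promoter windows of EPOR and IL6ST are printed because these are the 2 tested receptors whose groups did not overlap. They are RefSeq sequences of the assembly GRCh38.p14, 250 bases before to 50 bases after a start site, read 5′ to 3′ on the gene's own strand: chr19:11384265-11384564, minus strand, for EPOR and chr5:55994914-55995213, minus strand, for IL6ST. Capitals mark matches of 2 motifs on either strand. The GATA motif, a form bound by erythroid GATA factors, was searched as AGATAA. On the opposite strand it reads TTATCT. The GC box, a form bound by SP1, was searched as GGGCGG. On the opposite strand it reads CCGCCC. No match of one motif can overlap a match of the other.
EPOR: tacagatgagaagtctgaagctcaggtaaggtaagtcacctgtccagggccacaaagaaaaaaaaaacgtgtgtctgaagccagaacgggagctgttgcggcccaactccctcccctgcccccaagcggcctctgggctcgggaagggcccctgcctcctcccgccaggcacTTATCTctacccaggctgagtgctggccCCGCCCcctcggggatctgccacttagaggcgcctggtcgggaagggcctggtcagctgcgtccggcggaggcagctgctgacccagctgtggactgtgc
IL6ST: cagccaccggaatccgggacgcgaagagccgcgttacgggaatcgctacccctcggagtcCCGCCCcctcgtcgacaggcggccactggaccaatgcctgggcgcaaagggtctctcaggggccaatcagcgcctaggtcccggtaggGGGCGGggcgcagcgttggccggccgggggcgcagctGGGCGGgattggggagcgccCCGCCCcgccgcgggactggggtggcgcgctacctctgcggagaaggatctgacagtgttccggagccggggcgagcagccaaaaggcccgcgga
The EPOR window held 1 GATA motif and 1 GC box, and the IL6ST window 0 and 4. Among 34961 windows of the same length in RefSeq, 10.3% held the GATA motif and 45.0% the GC box. Windows were found for 8 of the 9 receptors, and of these EPOR was the 1 with a GATA motif. These matches describe the letters of the windows, and the RNA counts hold no measurement of binding there.

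KIT (chromosome 4, 54657918 to 54740715, plus strand), the receptor for stem cell factor on haematopoietic progenitors and mast cells, was the most abundant of the 9. Its counts were 7908 and 5287 in Ctrl against 7741 and 7006 in the knockdown, or 423 and 354 CPM against 428 and 416 CPM. The groups overlapped, with Ctrl 1 level with the knockdown libraries and Ctrl 2 below them. The log2 fold change was 0.12 ± 0.14 (SE; 95% interval -0.21 to 0.45; edgeR adjusted p = 0.788). It was 0.26 without Ctrl 1, -0.01 without Ctrl 2, 0.13 without knockdown 1 and 0.14 without knockdown 2. After the GC correction KIT was at 383 and 389 CPM in Ctrl against 423 and 424 CPM in the knockdown, and its log2 fold change was 0.13 ± 0.05 (SE; edgeR adjusted p = 0.0764), which did not pass. Of the 5 mast cell and basophil markers, CPA3, a carboxypeptidase of mast cell granules, rose (55.3 and 39.6 CPM to 147 and 144 CPM; log2 fold change 1.61; edgeR adjusted p = 0.0356). The tryptases TPSAB1 and TPSB2 had -1.58 and -1.43 (edgeR adjusted p = 0.103 and 0.186), so the 5 markers did not move together. MS4A2 had -0.98 and HDC 0.15 (edgeR adjusted p = 0.183 and 0.669). Of the 5 markers 2 were positive and 3 negative, with a median of -0.98. The 5 summed to 597 and 650 CPM in Ctrl against 777 and 770 CPM in the knockdown. Most of this sum was HDC (530 and 591 CPM against 625 and 619 CPM). The part of these markers in the level of KIT was not tested.

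FLT3 (chromosome 13, 28003274 to 28100592, minus strand), the receptor tyrosine kinase of early lymphoid and myeloid progenitors, was near the detection limit. It had 6 and 5 counts in Ctrl against 10 and 7 in the knockdown, or 0.321 and 0.335 CPM against 0.553 and 0.416 CPM. The knockdown libraries were slightly higher, by a handful of reads, and no test was made. Its ligand gene FLT3LG was more abundant per length, with a Ctrl mean of 7.97 against 0.307 for FLT3. FLT3LG had 72 and 116 counts in Ctrl against 68 and 63 in the knockdown.

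CSF2RB (chromosome 22, 36913628 to 36940449, plus strand), the common beta chain, was abundant, whereas its alpha chains were almost absent. Its counts were 3723 and 4661 in Ctrl against 4467 and 4497 in the knockdown, or 199 and 312 CPM against 247 and 267 CPM. The 2 Ctrl libraries lay on either side of the knockdown libraries. The log2 fold change was 0.01 ± 0.22 (SE; 95% interval -0.50 to 0.52; edgeR adjusted p = 0.993), an interval that holds changes of about 0.5 in either direction. Leaving out Ctrl 1 gave -0.28 and leaving out Ctrl 2 gave 0.36, with opposite signs. Leaving out knockdown 1 gave 0.09 and leaving out knockdown 2 gave -0.05. CSF2RB has 55.5% GC. The GC correction brought its Ctrl levels to 224 and 280 CPM, still on either side of 251 and 262 CPM in the knockdown (log2 fold change 0.03 ± 0.10 SE; edgeR adjusted p = 0.869).

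The alpha chains of the beta-chain family gave few or no reads. CSF2RA (chromosome X, 1268800 to 1310381, plus strand), the GM-CSF alpha chain, had 1 and 0 counts in Ctrl against 1 and 1 in the knockdown. IL3RA (chromosome X, 1336616 to 1382689, plus strand), the interleukin 3 alpha chain, had 0 counts in all 4 libraries, which allows up to 0.161, 0.201, 0.166 and 0.178 CPM at 3 counts (counting error only). IL5RA, the interleukin 5 alpha chain, had 1, 2, 1 and 0 counts. Per length, CSF2RB was at least 424-fold higher than IL3RA in Ctrl 1 and at least 531-fold, 509-fold and 513-fold higher in Ctrl 2 and knockdown 1 and 2. CSF2RA and IL3RA lie in pseudoautosomal region 1, whose sequence is present on both X and Y, so that reads can map to 2 places, with handling not given in the sources used here. Some other genes of that region were counted well. SLC25A6, a mitochondrial ADP/ATP carrier, was at 413 and 662 CPM in Ctrl against 553 and 610 CPM in the knockdown, and PLCXD1 at 190 and 244 CPM against 201 and 220 CPM. Of the 15 listed genes of the region, 9 passed the filter and 2, IL3RA and the related receptor CRLF2, were at 0 in all libraries. SHOX, ASMT and P2RY8 had at most 1, 2 and 8 counts in any library and, like CSF2RA, did not pass the filter. Of those 9 genes, 0 passed edgeR, where 0.641% of all tested genes passed. At an edgeR unadjusted p under 0.05 there were 0, against 15% of all tested genes.

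IL6ST (chromosome 5, 55935095 to 55994993, minus strand), the gp130 chain, was the 1 tested receptor with a negative log2 fold change. Its counts were 1335 and 830 in Ctrl against 900 and 817 in the knockdown, or 71.5 and 55.6 CPM against 49.7 and 48.5 CPM. The knockdown libraries lay below both Ctrl libraries, closest to Ctrl 2. The mean was 63.5 ± 11.3 CPM in Ctrl against 49.1 ± 0.863 CPM in the knockdown (SD, n = 2 each). On the log2 scale the knockdown differed by -0.37 ± 0.18 (SE; 95% interval -0.80 to 0.06; edgeR adjusted p = 0.410), and IL6ST did not pass. It was -0.17 without Ctrl 1, -0.54 without Ctrl 2, -0.36 without knockdown 1 and -0.35 without knockdown 2. The IL6ST transcript is AT-rich, at 36.6% GC, the opposite end from EPOR. After the GC correction its levels were 61.1 and 63.4 CPM in Ctrl against 49.5 and 50.1 CPM in the knockdown, and the fitted difference was -0.32 ± 0.06 on the log2 scale (SE; edgeR adjusted p = 0.00984). An antisense gene, AC008914.1, overlaps exons of IL6ST in the annotation, and IL6ST, IL6R and CSF2RB each have a pseudogene (IL6STP1, IL6RP1 and CSF2RBP1). How the counting used strand and shared reads was not given in the sources used here, which leaves the counts of these 3 genes uncertain.

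IL6R (chromosome 1, 154405193 to 154469450, plus strand), the ligand-binding chain for interleukin 6, was barely expressed beside its partner. It had 16 and 11 counts in Ctrl against 14 and 17 in the knockdown, or 0.857 and 0.736 CPM against 0.774 and 1.01 CPM. The groups overlapped (log2 fold change 0.15 ± 0.36 SE; 95% interval -0.71 to 1.01; edgeR adjusted p = 0.911). Per length, IL6ST was 57.9 and 52.4 times as high as IL6R in Ctrl and 44.6 and 33.4 times as high in the knockdown. Other chains that pair with IL6ST differed widely. Their mean per-length level in Ctrl was 117 for IL27RA, 10.3 for IL11RA and 5.07 for OSMR. The interleukin 27 receptor chain IL27RA was at 69.3 and 108 CPM in Ctrl against 100 and 111 CPM in the knockdown, the oncostatin M receptor OSMR between 7.37 and 10.2 CPM, and IL11RA between 8.03 and 14.5 CPM. LIFR and CNTFR had 0 counts in all 4 libraries.

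CSF3R (chromosome 1, 36466043 to 36483278, minus strand), the G-CSF receptor of the neutrophil lineage, was low. It had 36 and 45 counts in Ctrl against 34 and 51 in the knockdown, or 1.93 and 3.01 CPM against 1.88 and 3.03 CPM. Library 2 was the higher of each group and the groups covered almost the same range (log2 fold change 0.00 ± 0.35 SE; 95% interval -0.81 to 0.82; edgeR adjusted p = 1). The sign depended on single libraries: it was -0.30 without Ctrl 1, 0.34 without Ctrl 2, 0.33 without knockdown 1 and -0.38 without knockdown 2. Markers of monocytes and granulocytes summed to 61.5 and 56.6 CPM in Ctrl against 54.0 and 51.1 CPM in the knockdown, almost all of it LYZ, a secreted lysozyme. Of these 8 markers 3 were tested, 1 positive and 2 negative, with a median log2 fold change of -0.18. ELANE had 15 and 22 counts in Ctrl against 21 and 27 in the knockdown, and CSF1R 15 and 9 against 10 and 9. S100A8 had 0 and 0 counts in Ctrl against 3 and 2 in the knockdown, and S100A9 0 and 1 against 2 and 4. FCN1 had 0 counts in all libraries, and CD14 and MPO at most 2 in any.

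**Figure D2:**
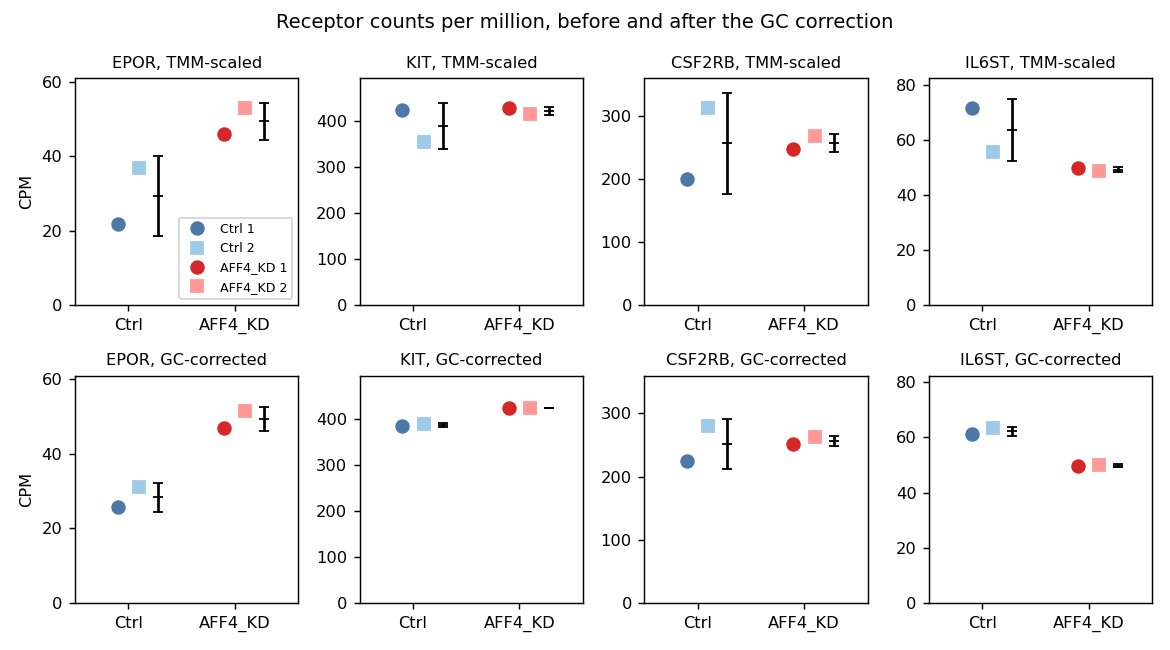
CPM of EPOR, KIT, CSF2RB and IL6ST in the 4 libraries, TMM-scaled (top) and after the GC correction (bottom); points are libraries, bars the mean ± SD of 2 libraries, and each axis starts at 0. EPOR was higher and IL6ST lower in both knockdown libraries in either row, and the Ctrl libraries lay closer together after the correction, as for KIT (423 and 354 CPM before, 383 and 389 CPM after).

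The receptors differed between the Ctrl libraries in the order of their GC content, except that CSF2RB and CSF3R, almost equal in GC, changed places. The log2 difference Ctrl 2 minus Ctrl 1 was -0.36 for IL6ST, -0.26 for KIT, -0.19 for IL6R, 0.65 for CSF2RB, 0.61 for CSF3R and 0.76 for EPOR. Their GC contents were 36.6%, 42.6%, 51.8%, 55.5%, 55.6% and 58.2%. For EPOR this gap within Ctrl was as large as the fitted difference between the groups.

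**Figure D3:**
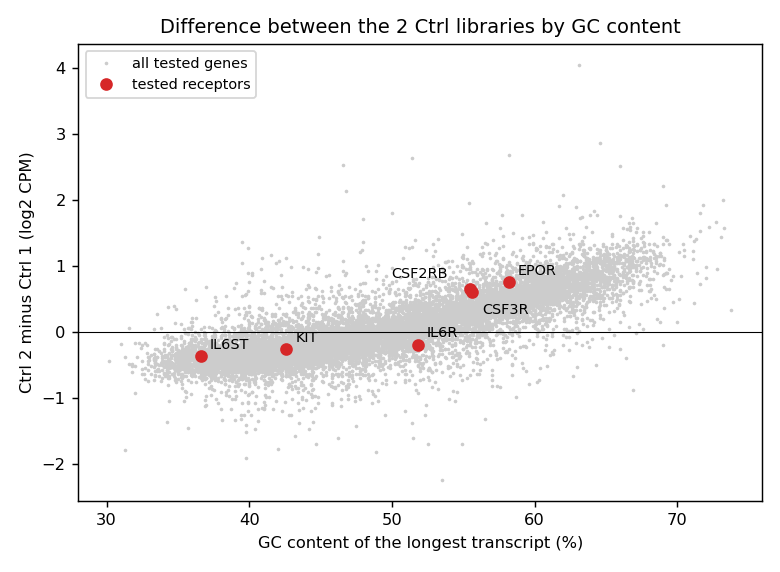
Log2 difference in CPM between the Ctrl libraries (Ctrl 2 minus Ctrl 1) against the GC content of the longest transcript, for all tested genes with a GC value (grey) and the 6 tested receptors (red). The AT-rich transcripts IL6ST (-0.36) and KIT (-0.26) were lower in Ctrl 2, and the GC-rich CSF2RB (0.65), CSF3R (0.61) and EPOR (0.76) were higher.

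**Figure D4:**
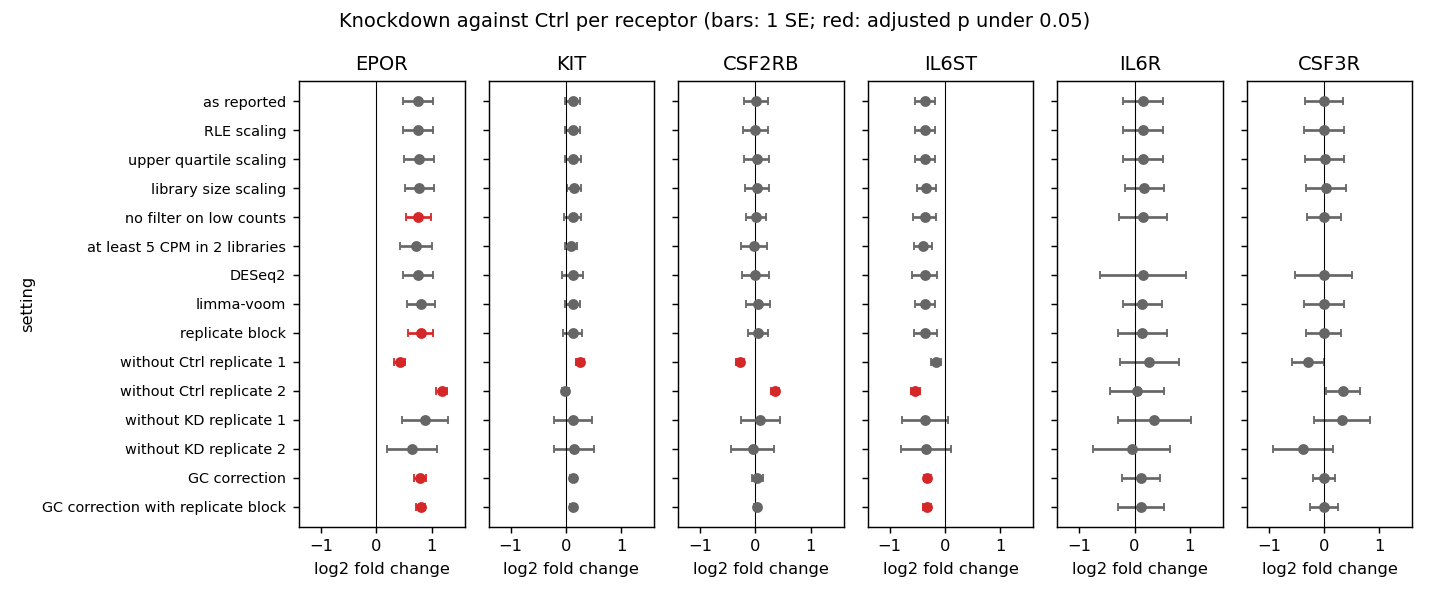
Log2 fold change of the knockdown against Ctrl for the 6 tested receptors as reported and under 14 other settings, with bars of 1 SE; red points have an adjusted p under 0.05. EPOR was positive (0.42 to 1.18) and IL6ST negative (-0.54 to -0.17) in every setting drawn, whereas CSF2RB ran from -0.28 to 0.36.

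The other genes of the pathway were taken from lists of ligands, other receptors, kinases and STAT factors, adaptors and regulators, shedding and traffic factors, and feedback inhibitors. Of the 88 tested genes on these lists and the pseudoautosomal list, 1 passed edgeR, where 0.641% of all tested genes passed. A single call in 88 genes is close to that share, and the called gene fell. This was CBL, the ubiquitin ligase that tags activated KIT, FLT3 and EPOR for degradation. CBL was at 170 and 166 CPM in Ctrl against 76.7 and 77.5 CPM in the knockdown, with narrow groups far apart. Its log2 fold change was -1.13 ± 0.14 (SE; edgeR adjusted p = 0.0357). The call was lost with a filter of at least 5 CPM in 2 libraries (edgeR adjusted p = 0.0573) and without knockdown 1 or knockdown 2 (0.426 and 0.571), with values between -1.16 and -1.09 over all settings. The related ligase CBLB had -0.20 (edgeR adjusted p = 0.726).

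Among the 27 adaptors, phosphatases and ubiquitin ligases, 13 were positive and 14 negative, with a median of -0.01. PIK3CB, a catalytic subunit of PI3-kinase, was at 423 and 311 CPM in Ctrl against 185 and 184 CPM in the knockdown, and did not pass (log2 fold change -0.99; edgeR adjusted p = 0.0648). RHEX, a membrane adaptor that supports erythropoietin signalling in human erythroid cells, was at 2.89 and 2.41 CPM in Ctrl against 5.47 and 5.23 CPM in the knockdown (1.01; edgeR adjusted p = 0.113). PIK3CB and RHEX are named after their values were seen. The most abundant members differed little: the phosphatase PTPN11 had -0.30, the lipid phosphatase INPP5D -0.01 and the adaptor SHC1 -0.03 (edgeR adjusted p = 0.392, 0.990 and 0.962).

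Of the 16 JAK, other tyrosine kinase and STAT genes, which carry the signal inside the cell, 7 were positive and 9 negative. Their median was -0.03. None passed edgeR (0; at an unadjusted p under 0.05 there were 2 higher and 1 lower, against 15% of all tested genes; DESeq2 called 1, STAT4, against 3.02%, and limma-voom 0). STAT4 was at 6.10 and 4.02 CPM in Ctrl against 12.1 and 11.6 CPM in the knockdown (log2 fold change 1.22; edgeR adjusted p = 0.0869). STAT3, which gp130 activates, was at 505 and 525 CPM against 346 and 370 CPM (-0.52; 0.120), and the groups were well apart. The kinase SYK had 0.33 (edgeR adjusted p = 0.320). JAK2, the kinase bound to EPOR and CSF2RB, was at 626 and 447 CPM in Ctrl against 416 and 390 CPM in the knockdown (-0.41; 0.348), and was -0.15 without Ctrl 1. STAT5A and STAT5B, the main STATs downstream of EPOR, had -0.07 and 0.03 (edgeR adjusted p = 0.908 and 0.955).

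The ligand genes were mostly silent. Of 16, 3 were tested and 5 had 0 counts in all libraries; EPO, KITLG, IL3, CSF2 and CSF3, the ligands of EPOR, KIT and the beta-chain and G-CSF receptors, had at most 1 count in any library. Oncostatin M, OSM, was at 12.7 and 17.7 CPM in Ctrl against 8.62 and 8.61 CPM in the knockdown (log2 fold change -0.82; edgeR adjusted p = 0.163). FLT3LG had -0.62 and LIF 0.13 (edgeR adjusted p = 0.477 and 0.853), and FLT3LG was -0.04 without Ctrl 2. Of the 3, 0 passed edgeR, DESeq2 or limma-voom, and 1 was lower at an unadjusted p under 0.05, against 15% of all tested genes in either direction. OSM was -1.03 without Ctrl 1 and -0.57 without Ctrl 2.

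Of the 23 tested genes among the 32 other cytokine receptors, 6 were positive and 17 negative, with a median of -0.29. None passed edgeR (0; at an unadjusted p under 0.05 there were 1 higher and 6 lower, against 15% of all tested genes; DESeq2 called 2, against 3.02%, and limma-voom 0). The interferon receptor chain IFNAR1 was at 154 and 119 CPM in Ctrl against 75.8 and 79.3 CPM in the knockdown (log2 fold change -0.82; edgeR adjusted p = 0.0933). The interleukin 7 receptor IL7R was at 5.89 and 4.69 CPM against 10.2 and 11.5 CPM (1.03; 0.0942). IL13RA1 had -0.87 (edgeR adjusted p = 0.165). Among the most abundant were the leptin receptor LEPR and the common gamma chain IL2RG, with -0.58 and 0.05 (edgeR adjusted p = 0.170 and 0.913).

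The 6 tested genes of receptor shedding and traffic had a median of -0.14, 2 positive and 4 negative, and 0 passed edgeR, DESeq2 or limma-voom (2 were lower at an unadjusted p under 0.05, against 15% of all tested genes in either direction). The iRhom genes RHBDF2 and RHBDF1, which bring the sheddase ADAM17 to the surface, had -0.89 and -1.04 (edgeR adjusted p = 0.194 and 0.300), with RHBDF1 resting on 27, 19, 8 and 15 counts. RHBDF2 was -1.18 without Ctrl 1 and -0.53 without Ctrl 2, and RHBDF1 was -0.58 without knockdown 1 and -1.61 without knockdown 2. RNF41, a ubiquitin ligase acting on EPOR and other receptors, had 0.10, the sheddase ADAM10 -0.14 and TFR2, a partner of EPOR, 0.11 (edgeR adjusted p = 0.843, 0.778 and 0.903). The feedback inhibitors CISH, SOCS1, SOCS2 and SOCS3 had -0.42, -0.24, 0.07 and -1.19 (edgeR adjusted p = 0.409, 0.825, 0.908 and 0.0641), and 0 of the 4 passed in edgeR or limma-voom and 1, SOCS3, in DESeq2, against 3.02% of all tested genes. Without Ctrl 1 and without Ctrl 2, CISH was -0.67 and -0.12 and SOCS3 -1.44 and -0.88. SOCS3 binds gp130 and blocks it, and was at 189 and 279 CPM in Ctrl against 97.2 and 108 CPM in the knockdown.

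**Figure D5:**
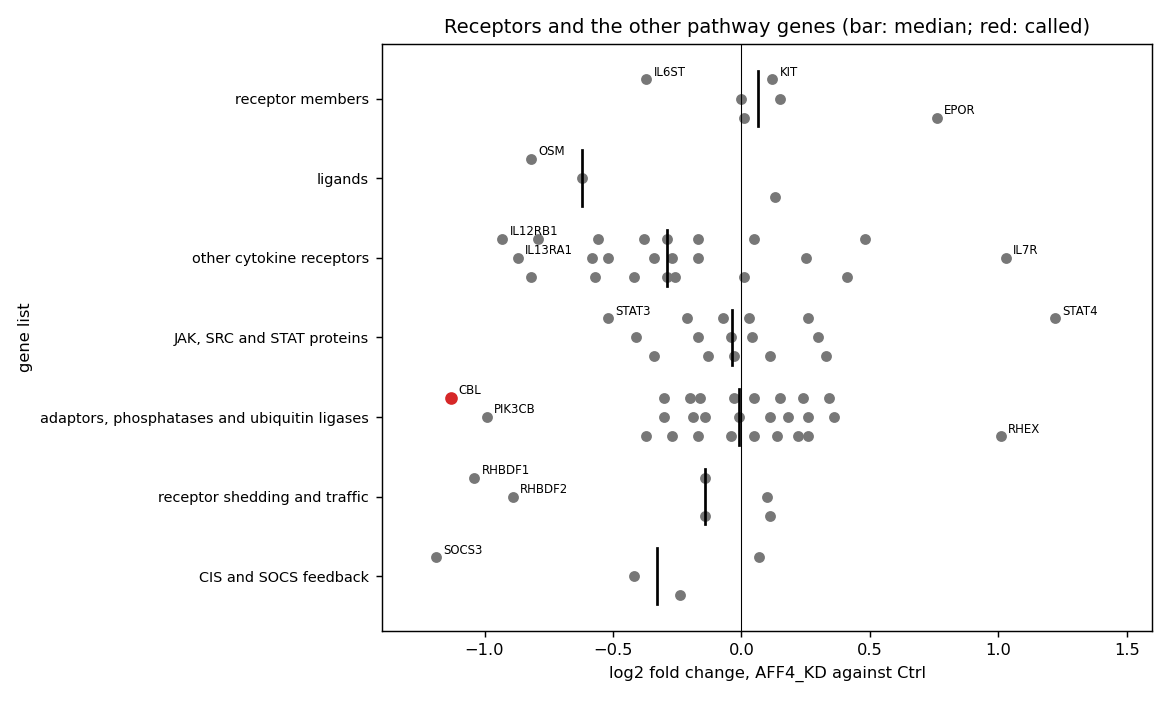
Log2 fold change of the knockdown against Ctrl for the tested receptors and the tested genes of 6 pathway lists; each point is a gene, black bars are list medians, and the red point, CBL, has an adjusted p under 0.05. Among the receptors EPOR (0.76) and IL6ST (-0.37) lay farthest from 0, inside the range of the other lists (-1.19 to 1.22).

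The genes whose levels over the 4 libraries were most like those of 2 receptors were found by the Euclidean distance between log2-CPM profiles, each centred on its own mean, among 10705 genes. For KIT, the most abundant receptor, these were the splicing factor SRSF3, the ribosomal protein RPL6 and ANP32A, at distances of 0.013, 0.014 and 0.017. For EPOR, the receptor with the smallest p, they were MAPKBP1, NAGLU and ZNF324, at distances of 0.10, 0.10 and 0.11. ZNF324, for example, was at 5.30 and 8.17 CPM in Ctrl against 10.8 and 12.7 CPM in the knockdown. The neighbours of EPOR were GC-rich as it is (57.9%, 64.4% and 58.8% GC), and with 4 libraries such likeness is a description only.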

How the data were processed

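The deposited values are whole-number counts of reads per gene symbol for 4 poly(A) libraries. The authors made them with fastp 0.13.1, HISAT2 2.1.0 and featureCounts 1.6.1 on hg38, per the submitters' processing notes, which give no roles. Which annotation and strand setting were used, and how reads with several alignments were handled, was not given in the sources used here. Per the labels' protocols, libraries were strand-marking (dUTP) and amplified by PCR. Each of the 4 count columns carries the name of its sample, and there were 0 other value columns.

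Counts were tested in edgeR 4.0.16 (R 4.3.3): filterByExpr defaults (minimum count 10, minimum total count 15), TMM scaling, group as the only term, the quasi-likelihood F test and Benjamini-Hochberg adjustment over all 13572 tested genes. Calls were made at an adjusted p under 0.05. SE is the absolute log2 fold change over the square root of F, and intervals are 95%. An exact permutation test of 2 against 2 libraries cannot go below p = 0.333. CPM use TMM-scaled library sizes. Exonic lengths, positions and transcript GC content came from GENCODE 29 (25862 symbols matched by name, 97% of tested genes with a GC value). The test was checked on simulated counts for 13450 genes, which gave back 66.3% of the 98 genes set to a 2-fold change and 95.9% of the 98 set to 4-fold. It also called 8 unchanged genes. The simulation gave every gene and both groups the same spread (biological coefficient of variation 0.153) and no trend with GC content. The real Ctrl libraries had such a trend and differed more than the knockdown libraries, so these shares do not measure power in the real data.

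Between the libraries of a group, counts varied 43.5 (Ctrl) and 2.49 (knockdown) times as much as sampling alone would give, per degree of freedom, so none was a duplicate.

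Alternatives were scaling by RLE, by the upper quartile or by library size alone, a filter of 5 CPM in 2 libraries or none, DESeq2 1.42.0, limma-voom (limma 3.58.1), a block for the replicate number, leaving out each library, an adjusted p under 0.01, and, added after seeing the data, a GC correction (lowess, span 0.4) with and without the block. The receptors and lists were chosen with earlier results of these data known. A fit that leaves a group with 1 library assumes that this library varies like those of the other group. Named genes are AFF4, the 9 receptors, in each list the called genes or else the 3 with the smallest p, and the 3 most abundant, and the 3 nearest profiles of 2 receptors; others named are examples or partners. One gene that this rule names is not reported here.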

Additional observations from a re-analysis of the deposited data

How the results depend on the processing

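The number of genes called over all tested genes, 87, was 734 with no filter, 5 with at least 5 CPM in 2 libraries, 410 in DESeq2, 3 at an adjusted p under 0.01, 3820 with the GC correction and between 46 and 6722 with 1 library left out. Of the receptors, 0 were called as reported, 1 (EPOR) with no filter, 2 with the GC correction and between 0 and 3 with 1 library left out. Of the 88 other pathway genes, 1 was called as reported, 6 in DESeq2 and 40 with the GC correction. Among all tested genes 0.641%, 3.02% and 28.1% were called in the same settings, and no set test was made. With no filter 12 of 104 tested pathway genes were called, where 734 of all 18862 tested genes were. With at least 5 CPM in 2 libraries 0 of 81 were called, and at an adjusted p under 0.01 0 of the 88. The replicate numbers give only 2 pairs and mark no shared origin in the labels (correlation of same-numbered deviations 0.285), so the replicate block is a check. It called 888 of all 13572 tested genes, 1 of the 6 tested receptors (EPOR, edgeR adjusted p = 0.00964) and 13 of the 88 pathway genes. With the GC correction the replicate block called 5301 of the 13572 genes, 2 of the 6 receptors and 53 of the 88 pathway genes. The sign changed with at least 5 CPM in 2 libraries for CSF2RB (-0.03) and STAT5B (-0.01) and with library-size scaling for INPP5D (0.02). Leaving out 1 library moved the size of many other pathway genes too, such as LEPR from -0.76 to -0.38 and IL13RA1 from -1.10 to -0.57. With 1 library left out the sign changed for 16 genes, beside CSF3R, whose reported value was 0.00 and which ran from -0.38 to 0.34: CSF2RB from -0.28 to 0.36, KIT from -0.01 to 0.26, IL6R from -0.05 to 0.36, LIF from -0.07 to 0.37, STAT5A from -0.26 to 0.15, STAT5B from -0.06 to 0.12, INPP5D from -0.15 to 0.15, SHC1 from -0.18 to 0.14, ADAM10 from -0.33 to 0.07, TFR2 from -0.25 to 0.60, SOCS1 from -0.64 to 0.27, SOCS2 from -0.02 to 0.17, PPP2R3B from -0.67 to 0.08, SLC25A6 from -0.18 to 0.49, PLCXD1 from -0.21 to 0.15 and AKAP17A from -0.47 to 0.16. The cause of these changes was not tested beyond the GC correction. EPOR and IL6ST kept their sign in all 15 alternatives. The low counts of FLT3, CSF2RA and IL3RA allowed no test.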
